A study of Drosophila melanogaster with 4 samples.

Results

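Phototransduction is the chain of reactions by which a photoreceptor cell of the fly eye turns light into an electrical signal. In Drosophila melanogaster, light-activated rhodopsin switches on the G protein Gq, Gq activates a phospholipase C, and the products of that enzyme lead to the opening of the cation channels TRP and TRPL in the rhabdomere, a stack of microvilli on each photoreceptor. Scaffold, kinase and arrestin proteins then speed, limit and end the response. The genes followed here were 10 members of this machinery, listed by symbol: ninaE, norpA, trp, trpl, Arr1, Arr2, inaC, inaD, Galphaq and eys. A probe set, the group of short array probes that gives 1 expression value, counted as a member when its annotation named exactly 1 of these genes. This gave 13 probe sets for 8 of the 10 genes, out of 11981 genes named in this way on the array. ninaE, the major rhodopsin gene, and norpA, the phospholipase C gene, had no such probe set in the annotation used here and were not analysed here. The rule uses names and no values, but the list of names was drawn up with earlier results of these data known.

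The arrays came from whole young adult males, 1 to 2 days old, of the wild-type Canton-S strain. The 3 exposed groups were kept for 24 h in the vapour of benzene, toluene or formaldehyde in mesh-closed vials on standard medium, and the control group was not exposed. The sources used here give neither the vapour concentrations nor the number of flies behind each RNA sample. There was 1 array for each of the 4 groups, so no difference could be set against a spread between replicates, and no test, standard error or p-value is given.

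Values are the deposited log2 probe set values, and each step of 1 is a 2-fold difference. To be called detected in a comparison, a gene had to reach the median of the non-control probe sets on the array where it was brighter. Those medians lay between 6.43 and 6.46. Of a gene's probe sets, the one with the highest mean over the 4 arrays stands for the gene. All 8 members with a probe set passed this filter on every array. Of the other photoreceptor markers listed, only chp, which encodes the rhabdomere adhesion protein chaoptin, had a probe set of its own. It stood at 10.63 on the control array, which cannot by itself check the label of the group. Of the remaining opsin genes, Rh7 alone had a probe set of its own. It stood at 6.27, 6.36, 6.25 and 6.13 on the control, benzene, toluene and formaldehyde arrays and was not detected. In whole-fly RNA, fewer cells of a type and less RNA per cell cannot be told apart.

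By their brightest probe sets, all 8 members were higher on the benzene and formaldehyde arrays than on both the control and the toluene array, by small amounts. For benzene against control the log2 ratios ran from 0.18 to 0.41 with a median of 0.27, and for formaldehyde against control from 0.18 to 0.41 with a median of 0.25. For toluene against control they ran from -0.05 to 0.23 with a median of 0.04. No member differed by 2-fold between any pair of arrays. A dimmer probe set of Galphaq, given below, read 6.42 with benzene and 6.44 with toluene. An order in which benzene and formaldehyde both lie above control and toluene was found in 14.6% of the 8250 genes detected on any array. It was not in the plan and describes what the members showed, so their count is no test of it. This order held for 7 of the 8 members after quantile normalisation or median centring of the arrays, because the toluene and formaldehyde values of eys are nearly equal. The share of all genes with this order was then 18.7% and 17.7%. When the ratios were adjusted for brightness, all 8 members kept the order, beside 20.3% of all genes.

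**Figure D1:**
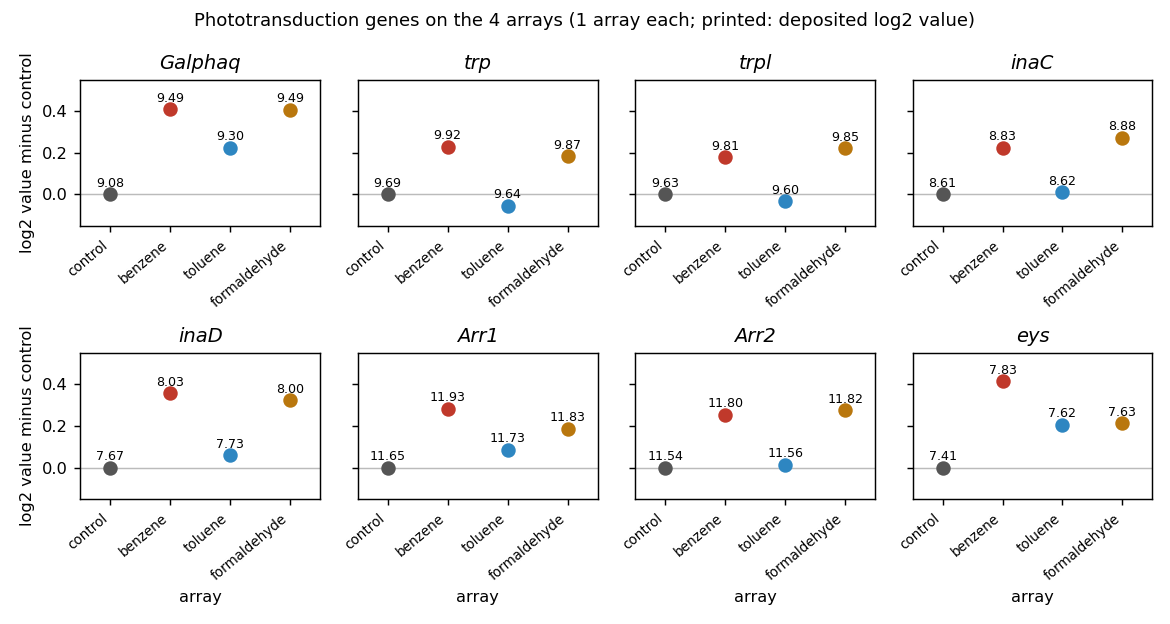
Log2 value of each of the 8 phototransduction genes on the control, benzene, toluene and formaldehyde arrays, plotted as the difference from the control array, with the deposited log2 value printed above each point (1 array per group, no error bars). In every panel the benzene and formaldehyde points lie above the control and toluene points, and for eys toluene (7.62) and formaldehyde (7.63) almost coincide.

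Galphaq encodes the alpha subunit of Gq, which couples rhodopsin to phospholipase C. Its brightest probe set read 9.08 on the control, 9.49 on the benzene, 9.30 on the toluene and 9.49 on the formaldehyde array. Benzene and formaldehyde were thus level, each 1.33-fold above the control, and toluene lay between them and the control at 1.17-fold. Galphaq had the highest toluene ratio of the 8 members (0.23). A second probe set of Galphaq read 6.26, 6.42, 6.44 and 6.60 in the same order, and another read 5.41, 5.67, 5.47 and 5.63. Both placed the control lowest, but the second put toluene level with benzene, and only on the formaldehyde array did it reach the median of the array. The other one was below that median on all 4 arrays. Averaging the detected probe sets lowered the benzene ratio of Galphaq from 0.41 to 0.29.

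The channel genes trp and trpl were the only members with a toluene value below the control. trp encodes the main light-activated calcium-permeable channel. It read 9.69 on the control, 9.92 on the benzene, 9.64 on the toluene and 9.87 on the formaldehyde array. trpl, which encodes the partner channel TRPL, read 9.63, 9.81, 9.60 and 9.85 in that order. For both genes the toluene array was the lowest of the 4, 0.05 (trp) and 0.03 (trpl) below the control on the log2 scale. Benzene was 1.17-fold above the control for trp and 1.13-fold for trpl, and formaldehyde was 1.14-fold and 1.17-fold above it. The sign of the toluene ratio of trpl turned, to 0.00, when the ratios were adjusted for brightness.

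inaD and inaC belong to the signalling complex held together at the rhabdomere. inaD encodes the PDZ-domain scaffold that binds TRP, phospholipase C and the eye protein kinase C, and it read 7.67 on the control, 8.03 on the benzene, 7.73 on the toluene and 7.995 on the formaldehyde array. inaC encodes that kinase, which acts in the shut-off and adaptation of the response, and it read 8.61, 8.83, 8.62 and 8.88. For both genes toluene and control were close together (log2 ratios of 0.06 for inaD and 0.01 for inaC), while benzene and formaldehyde stood apart from them. The benzene and formaldehyde ratios were 0.36 and 0.32 for inaD and 0.22 and 0.27 for inaC.

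The arrestins Arr1 and Arr2 bind activated rhodopsin and end its signalling, and Arr1 also acts in the uptake of rhodopsin from the membrane. Arr2 read 11.54 on the control, 11.80 on the benzene, 11.56 on the toluene and 11.82 on the formaldehyde array. Arr1 read 11.65, 11.93, 11.73 and 11.83. Benzene was highest for Arr1 (1.22-fold above the control), and formaldehyde, by 0.02 log2 units, for Arr2 (1.21-fold above the control). The toluene ratio of Arr1 was 0.09 and that of Arr2 was 0.02. The latter turned to -0.04 after quantile normalisation and to -0.01 after the adjustment for brightness.

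eys encodes a secreted protein that opens the space between rhabdomeres and is not itself a step of the cascade. It read 7.41 on the control, 7.83 on the benzene, 7.62 on the toluene and 7.63 on the formaldehyde array. Benzene was thus the highest array for eys, 1.33-fold above the control, and toluene and formaldehyde were level at 1.15-fold and 1.16-fold. The 7 cascade genes placed formaldehyde between 0.10 and 0.26 log2 units above toluene, against 0.01 for eys. The remaining 3 probe sets of eys lay below the array background on every array. That background, the 95th percentile of 20 probe sets for control transcripts that were not spiked in, was 4.64 to 4.88. The first of them read 4.78, 4.83, 4.58 and 4.51, the second 4.47, 4.68, 4.43 and 4.49, and the third 3.87, 3.81, 3.84 and 4.10, so the result for eys rests on 1 probe set.

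Against the control, the members' place among all genes differed between the exposures. On the benzene array 8 of 8 members were above 0, as were 42.9% of 8134 detected genes, whose median was -0.02. Of the members 5 (Galphaq, eys, inaD, Arr1 and Arr2) had a log2 ratio of at least 0.25, or 1.19-fold, a size reached by 4.79% of detected genes. The 2-fold line was passed by 0 of 8 members and by 0.43% of detected genes. The lowest benzene ratio of the 8, that of trpl, still exceeded or equalled the ratios of 91.2% of detected genes, and eys, the highest, those of 98.2%.

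On the formaldehyde array 8 of 8 members were also above 0, beside 52.3% of 8165 detected genes. A ratio of at least 0.25 was reached by 4 of them, Galphaq, inaD, Arr2 and inaC, and by 10.7% of detected genes. None passed 2-fold, beside 1.11% of detected genes. The members held places between percentiles 83.1 (trp) and 95.5 (Galphaq) of detected genes. The distribution of all ratios was wider here than for benzene, with a robust SD (scaled median absolute deviation) of 0.21 against 0.15.

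On the toluene array 6 of 8 members were above 0, beside 51.5% of 8140 detected genes, and 0 of 8 reached 0.25, beside 7.01%. None passed 2-fold, beside 0.283% of detected genes. The members spread from percentile 35.2 (trp) to percentile 91.8 (Galphaq). As a set their median of 0.04 was close to the 0.01 of all detected genes. These 3 comparisons share the control array, so any peculiarity of that array enters all of them.

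**Figure D2:**
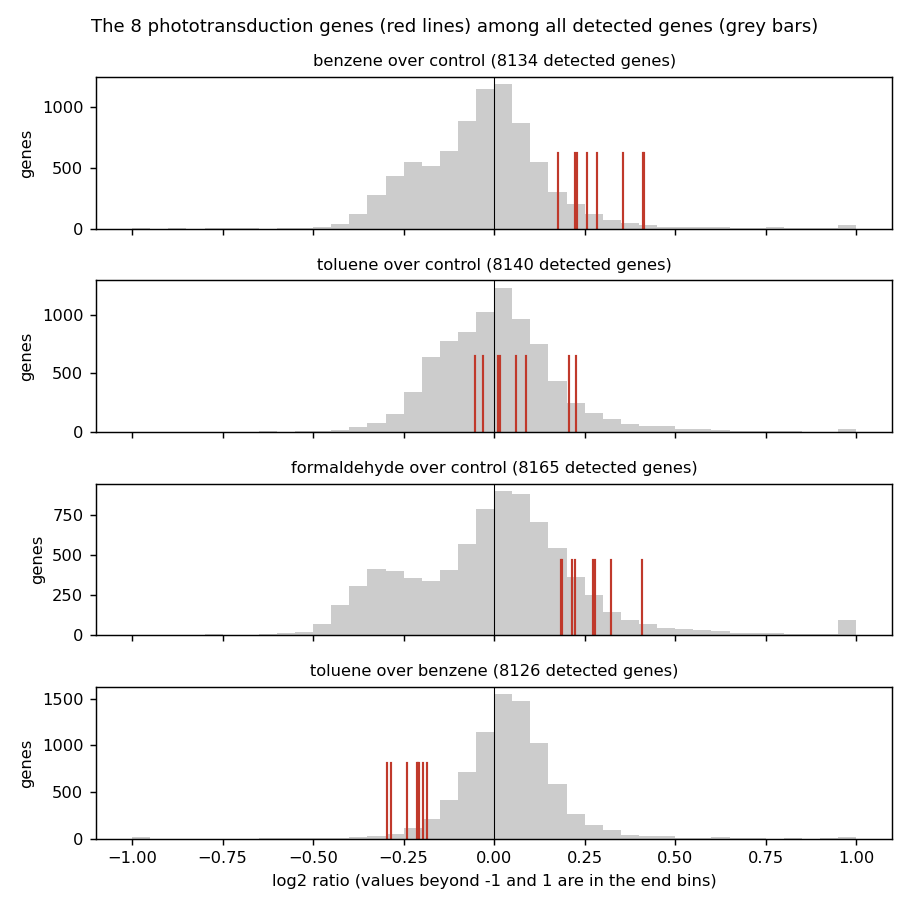
Histograms of the log2 ratios of all detected genes (grey, number of genes per bin of 0.05 log2 units) for the 3 exposures against control and for toluene against benzene, with the 8 phototransduction genes as red lines whose height carries no value. The red lines lie right of the centre for benzene (0.18 to 0.41, percentiles 91.2 to 98.2). For formaldehyde (0.18 to 0.41) they also lie right of the centre but overlap the main body, at percentiles 83.1 to 95.5. For toluene (-0.05 to 0.23) they spread from the body to its right side, at percentiles 35.2 to 91.8. For toluene against benzene (-0.30 to -0.18) they lie in the left tail.

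Toluene and benzene, aromatic hydrocarbons that differ by the methyl group on the ring, were compared at the same 24 h of exposure, with no information on dose. By their brightest probe sets, all 8 members were lower with toluene than with benzene, and here the members lay close together. The log2 ratios ran from -0.30 (inaD) to -0.18 (Galphaq) with a median of -0.21, while all 8126 detected genes had a median of 0.04 and a robust SD of 0.10. The second probe set of Galphaq, just below the median of both arrays, gave 0.02. Averaged with the brightest, it gave -0.08. Lower values with toluene were found for 34.4% of detected genes. A ratio of -0.25 or below was reached by 2 members, inaD and trp (-0.28), and by 2.29% of detected genes. All 8 lay within the lowest 4.37% of genes. None passed 2-fold, beside 0.443%. The split of all genes in this comparison moved with the scaling: 65.6% of detected genes were above 0 as deposited and 51.9% after quantile normalisation. No detected member was above 0 under any of the 7 alternatives tried, one of which, the filter at the 75th percentile, left 6 members. With 1 array each, no interval of the difference could be given.

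**Figure D3:**
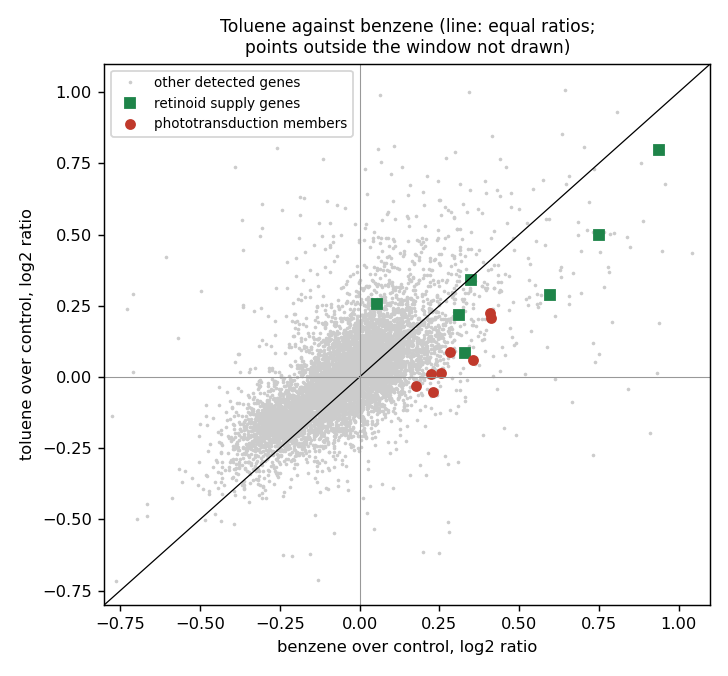
Log2 ratio to control for toluene (vertical axis) against benzene (horizontal axis), with the 8 phototransduction genes as red circles, 7 retinoid supply genes as green squares and other detected genes as grey points, on the line of equal ratios. Both axes use the same control array, which by itself spreads points along the line. All red circles lie below the line, with toluene ratios of at most 0.23, and the squares rdhB and Pdh are highest on the benzene axis at 0.94 and 0.75.

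Formaldehyde and benzene were close for most members. Of the 8, 3 were higher with formaldehyde (inaC, trpl and Arr2, by at most 0.05 log2 units) and 5 lower, beside 54.7% of 8150 detected genes that were higher. After quantile normalisation the share of all genes was 43.5%, again with 3 of 8 members higher. The members' median was -0.02, and the largest difference was that of eys (-0.20), followed by Arr1 (-0.10). Between these arrays no member passed 0.25 in either direction, beside 8.33% of genes higher and 3.56% lower, and none passed 2-fold, beside 1.01% of genes. Formaldehyde against toluene gave 8 of 8 members above 0, beside 44.4% of 8145 detected genes, with a median of 0.25. For 6 of the 8 the ratio was between 0.18 and 0.26, with Arr1 at 0.10 and eys at 0.01. At least 0.25 was reached by 4 members, trpl, inaC, Arr2 and inaD, beside 6.36% of genes, and 2-fold by none, beside 0.859%.

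Further genes of the cascade, the rhabdomere and retinoid supply followed the members in part. Their list was drawn up with earlier results of these data known, and its split by role, used below, was not in the plan. Of 26 listed genes with a probe set, 24 were detected. Above 0 were 18 of 24 for benzene, 15 for toluene and 22 for formaldehyde, beside 42.9%, 51.5% and 52.3% of all detected genes. Their medians were 0.07, 0.04 and 0.16, beside medians of -0.02, 0.01 and 0.01 over all detected genes. The benzene median was 0.24 over the 13 genes left by a filter at the 75th percentile. At least 0.25 higher were 7, 4 and 6 of the 24, beside 4.79%, 7.01% and 10.7% of all detected genes. The 4 with toluene were ninaD, ninaG, pinta and rdhB, all retinoid supply genes that are counted again below. The 7 with benzene included ninaB, ninaD, ninaG, santa-maria and rdhB, of the same role. The order with benzene and formaldehyde above control and toluene held for 10 of 24, beside 14.6% of genes detected on any array.

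Among these genes, Gbeta76C, rtp and chp also had benzene and formaldehyde above control and toluene. Gbeta76C encodes the beta subunit that pairs with the Gq alpha subunit in the eye. It read 10.65 on the control, 11.02 on the benzene, 10.70 on the toluene and 11.04 on the formaldehyde array. rtp encodes retinophilin, a rhabdomere protein that anchors the myosin NINAC. It read 9.49, 9.88, 9.64 and 9.998, and its second probe set read 8.49, 8.87, 8.73 and 9.01. chp, for chaoptin, read 10.63, 10.87, 10.58 and 10.75. The log2 ratios of toluene to benzene were -0.32 for Gbeta76C, -0.24 for rtp and -0.29 for chp, beside -0.30 to -0.18 for the members. The list as a whole did not share this gap. Its 24 detected genes had a median of -0.03, with 8 above 0 and 16 below, beside 65.6% of all detected genes above 0.

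Enzymes of the phosphoinositide and diacylglycerol cycle, which rebuild the lipid that phospholipase C consumes, lay nearer to the control. The 9 genes of this role had medians of 0.05 for benzene, 0.01 for toluene and 0.17 for formaldehyde, and Gbeta76C is one of them. laza, for a phosphatidic acid phosphatase, was at 0.08, -0.13 and 0.37. rdgA, for the diacylglycerol kinase, was at 0.07, -0.01 and 0.18. Its other detected probe set was higher, at 0.19, 0.01 and 0.23. rdgB, for a phosphatidylinositol transfer protein, was at 0.05, 0.05 and 0.17, and its other detected probe set at 0.03, 0.03 and 0.17. inaE, for a diacylglycerol lipase, was the lowest with benzene at -0.26, and at -0.07 and 0.02 otherwise. This group therefore had its higher ratios with formaldehyde, and its toluene median turned sign under 1 of the 7 alternatives.

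Genes that bring calcium back down or shut rhodopsin off were mostly near 0. Apart from rtp, the detected genes of this role were Calx, rdgC, stops, Gprk1 and Pkc53E. Calx, for the sodium-calcium exchanger, was at -0.02 for benzene, 0.02 for toluene and 0.17 for formaldehyde. rdgC, for the rhodopsin phosphatase, was at -0.06, -0.09 and -0.05. Gprk1, for a rhodopsin kinase, was at 0.07, 0.06 and 0.15. The group median, rtp included, was -0.03, 0.01 and 0.10, and for toluene it turned sign under 3 of the 7 alternatives.

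The genes that supply and recycle the retinal chromophore were higher than the control on all 3 exposed arrays, toluene included. This set of 7 was put together by role after the values were seen, and it includes Pdh, which the list held only as PDH, a synonym of several genes. The control array was the lowest of the 4 for 7 of 7 genes, beside 29.4% of the 8250 genes detected on any array and 6 of the 8 members. For 3 of the 7, ninaB, ninaD and Pdh, benzene and formaldehyde also lay above toluene. The medians were 0.35 for benzene, 0.29 for toluene and 0.29 for formaldehyde. Every one of the 7 was above 0 in each exposure, beside 42.9%, 51.5% and 52.3% of all detected genes. At least 0.25 higher were 6, 5 and 4 of the 7, beside 4.79%, 7.01% and 10.7% of all detected genes.

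rdhB, which encodes a retinol dehydrogenase, was the gene of this set with the highest ratios. It read 7.84 on the control, 8.77 on the benzene, 8.63 on the toluene and 8.47 on the formaldehyde array. Pdh, for photoreceptor dehydrogenase, read 11.25, 12.00, 11.75 and 11.75. For both genes all 3 exposed arrays lay between 0.50 and 0.94 log2 units above the control. ninaD, for a scavenger receptor that takes up carotenoids, read 7.92, 8.51, 8.20 and 8.27. ninaB, for the enzyme that cleaves carotenoids to retinal, was at 0.33 for benzene, 0.09 for toluene and 0.15 for formaldehyde. santa-maria, for another carotenoid receptor, was at 0.31, 0.22 and 0.17. ninaG, for an oxidoreductase of chromophore synthesis, was at 0.35, 0.34 and 0.29, and pinta, for a retinoid-binding protein, at 0.06, 0.26 and 0.13. With toluene, 5 of the 7 thus reached 0.25, a size that none of the 8 members and 7.01% of detected genes reached on that array.

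Genes of photoreceptor transmission and eye colour were mixed. Hdc, for the enzyme that makes the photoreceptor transmitter histamine, was at 0.33 for benzene, 0.26 for toluene and 0.37 for formaldehyde. The gene tan, which frees histamine from its storage conjugate, was at 0.33, 0.26 and 0.26, and ebony, for the enzyme that forms the conjugate, at 0.14, 0.13 and -0.03. CarT, for the carcinine transporter, was at -0.04, -0.19 and 0.15. Of 12 detected screening pigment genes, 8 were above 0 for benzene, 10 for toluene and 8 for formaldehyde. The shares of all detected genes above 0 were 42.9%, 51.5% and 52.3%. The medians of the 12 pigment genes were 0.06, 0.07 and 0.11. Pu (0.53, 0.25 and 0.20) and se (0.39, 0.33 and 0.44), both for enzymes of pteridine pigment synthesis, had the highest benzene ratios of this list. With formaldehyde, se was highest and ca (0.28), car (0.27) and ras (0.26) lay above Pu. Of 12 retinal transcription factor genes with a probe set, 4 were detected. Pph13, a regulator of rhodopsin and phototransduction genes, was one of them and stood at 0.15, 0.16 and 0.16. The other detected ones were toy (0.14, -0.09 and 0.04), eya (0.02, -0.09 and -0.09) and pros (-0.07, -0.06 and -0.04). The medians of the 4 were 0.08, -0.07 and 0.00, and those for benzene and formaldehyde each turned sign under 1 alternative.

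**Figure D4:**
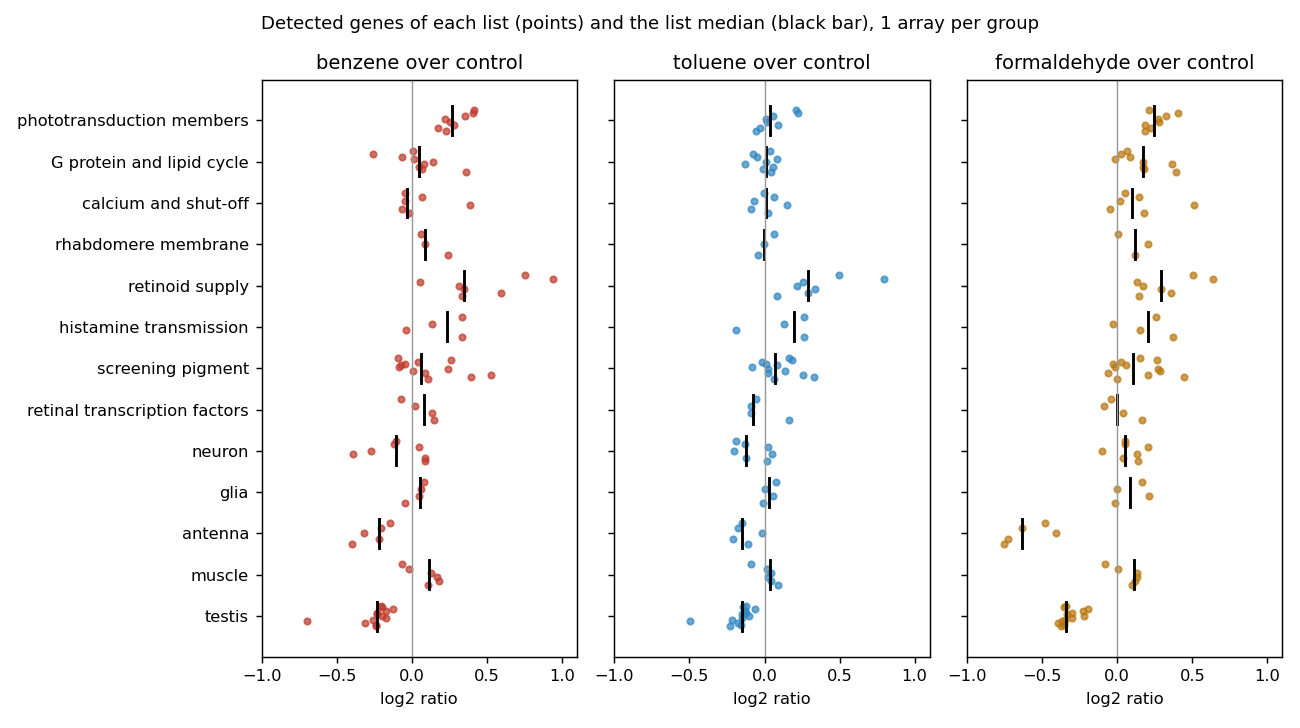
Log2 ratio to control of each detected gene (points) and the list median (black bars) for 13 gene lists, in 3 panels for benzene, toluene and formaldehyde, with 1 array per group. The members' medians are 0.27, 0.04 and 0.25, the retinoid supply medians 0.35, 0.29 and 0.29, the antenna medians -0.22, -0.15 and -0.63, and the testis medians -0.23, -0.15 and -0.34.

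Among markers of other cells of the head, the order with benzene and formaldehyde above control and toluene held for 3 of 7 neuron, 1 of 4 glia and 0 of 5 antenna genes detected on any array. It also held for 4 of 6 muscle markers (Act88F, TpnC4, up and fln), beside the 14.6% of all genes. Of 10 neuron markers with a probe set, 7 were detected, with medians of -0.11 for benzene, -0.12 for toluene and 0.05 for formaldehyde. Without the filter, 10 genes gave a benzene median of -0.01. Above 0 were 3, 3 and 6 of the 7, beside 42.9%, 51.5% and 52.3% of all detected genes. elav, the pan-neuronal RNA-binding protein gene, was at 0.09, 0.01 and 0.14. The lowest with benzene were cac (-0.39, 0.05 and 0.13) and Rdl (-0.27, -0.20 and -0.10). The 4 glia markers had medians of 0.05, 0.03 and 0.08. The 5 detected antenna markers, mostly odorant-binding protein genes, were all lower than the control for each exposure, with medians of -0.22, -0.15 and -0.63. lush among them was at -0.40, -0.11 and -0.75. The members and the antenna markers thus stood on opposite sides of the control on the benzene and formaldehyde arrays. The lens gene Cpr72Ec was at 0.16, 0.38 and 0.05.

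Testis genes stood on the other side of the control from the members on the same 2 arrays. All 13 detected testis markers were below the control for each exposure, with medians of -0.23 for benzene, -0.15 for toluene and -0.34 for formaldehyde. Their summed linear value was 0.867, 0.911 and 0.817 of the control. That of the members was 1.21, 1.03 and 1.18 times the control, a sum in which the brightest members, Arr1 and Arr2, weigh most. Of all detected genes, 11.2% were at least 0.25 lower for benzene, 3.92% for toluene and 17.7% for formaldehyde, and the histograms for benzene and formaldehyde have a second shoulder on that side. Muscle markers had medians of 0.12, 0.03 and 0.11, and the 7 fat body markers 0.13, 1.36 and 0.07. Of the latter, 3 were at least 2-fold higher with formaldehyde, Fbp1 (2.49), Fbp2 (2.42) and Lsp2 (1.02). With the filter at the 75th percentile, which left 5 of them, the benzene and formaldehyde medians were 0.44 and 1.02. The part of testis, antenna, muscle or fat body RNA in the ratios of the members was not tested.

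The 5 genes whose 3 ratios to control lay nearest to the members' medians were car, etaTry, Tdc1, scf and P58IPK, over 4 arrays. car, for a vesicle trafficking protein of pigment granules, was at 0.24 for benzene, 0.03 for toluene and 0.27 for formaldehyde. Of 8242 other detected genes, 80 (0.971%) lay as near as the median member, and 1587 (19.3%) as near as the farthest one. Over 3 ratios that share a control, such nearness carries little information.

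As to the arrays themselves, the difference between the 3' and 5' probe sets of control transcripts, a sign of RNA integrity and labelling, was similar for GAPDH (0.93 to 0.99) and eIF-4a (1.51 to 1.63). For actin it was 1.12, 1.09 and 1.16 on the control, benzene and toluene arrays and 0.83 on the formaldehyde array. For 18S rRNA it was -1.19 and -1.14 on the control and benzene arrays, and -1.40 and -1.38 on the toluene and formaldehyde arrays. Clock genes, which mark the time of sampling, had medians of -0.05, -0.01 and 0.07. The brightest probe set of cwo, a repressor of the clock, was at -0.05, -0.14 and 0.47, and its other detected probe set at -0.61, -0.39 and -0.04. Their part in the ratios of the members was not tested.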

How the data were processed

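RNA of 4 samples of male flies was hybridised to 4 arrays, 1 per group, after amplification from 300 ng of total RNA, per the labels' protocols. The authors deposited log2 probe set values. Affymetrix Expression Console 1.1, RMA and MAS5 are named without roles, per the submitters' processing notes, so the method behind the table is not stated. Values ran from 2.43 to 14.5 with near-equal medians, so overall differences in RNA amount are not visible in them. The table held 18952 probe sets, 183 of them array controls. Of the others, 13646 had 1 gene symbol in the platform annotation.

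Values were used as deposited, in Python 3.11.15 with pandas 2.3.3. Log2 ratios, counts and medians were computed without tests, since there was 1 array per group and the number of arrays limits the precision. The script was tested on simulated data. The members, the gene lists and the limit of 0.25 were chosen with earlier results of these data known. Counts of the order with benzene and formaldehyde above control and toluene, and the split of genes by role, were not in the plan. Genes named are all members, and, of the lists, mostly those with the highest and lowest ratios, as written in the plan, with further genes named for their role after their values were seen. The alternatives were quantile normalisation, median centring, subtraction of the running median of 301 probe sets of like brightness, the mean of detected probe sets, a filter at the 75th percentile, no filter, and 32 added to linear values. Sequences and promoter motifs were not analysed here.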

Additional observations from a re-analysis of the deposited data

How the results depend on the processing

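No paired analysis was possible because each group has 1 array. Over the 7 alternatives, 316 of 324 single-member ratios kept their sign and moved by no more than 0.104 log2 units, the robust SD of toluene against benzene over all genes. Many of them could not move. A filter, or none, changes which genes count but not a ratio, and the mean of detected probe sets could change only Galphaq. Under quantile normalisation Arr2 for toluene against control turned to -0.0402 and eys for formaldehyde against toluene to -0.000574. Under median centring the latter turned to -0.0033, and Arr2 for formaldehyde against benzene to -0.00557. Adjusted for brightness, trpl and Arr2 for toluene against control turned to 0.00224 and -0.0125. With the mean of detected probe sets, Galphaq moved to 0.29 for benzene against control and turned to 0.0852 for formaldehyde against benzene. Members at least 0.25 lower with toluene than with benzene numbered 4 under quantile normalisation, 4 adjusted for brightness, and 1 with the 75th percentile filter, beside 2 as reported. That filter leaves 6 members, so 3 in place of 5 were at least 0.25 higher with benzene, and the median for formaldehyde against benzene turned to 0.0101. With 32 added to linear values, 1 member in place of 4 was at least 0.25 higher with formaldehyde than with toluene. The members' medians kept their sign otherwise. That filter also moved the benzene medians of the retinoid supply genes to 0.60 (5 genes), of the screening pigment genes to 0.17 (4) and of the lipid cycle genes to 0.14 (3).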
